A study of Mus musculus with 6 samples.

Results

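The genes described here are 44 members of the interferon response and of the major histocompatibility complex (MHC) class I pathway, chosen by symbol, out of 21887 genes in RefSeq's table of mouse protein-coding genes (assembly GRCm38.p6). Their CpG positions were those with at least 10 reads in every library and lying in the annotated gene span or within 5 kb of it. This gave 1851 strand-specific positions at 1521 CpG sites, of 1463044 positions covered in all 6 libraries. The libraries were made from germinal centre B cells of the spleens of C57BL/6 mice. Of the 6, 3 came from Tet2 wild-type animals (WT) and 3 from animals labelled Tet2 knock-out (KO). Germinal centre B cells are the dividing B cells in which antibody genes mutate and switch class. Tet2 is an enzyme that oxidises 5-methylcytosine, and its loss slows the removal of methyl groups. The age of the mice, the cells in which Tet2 was deleted and the markers used to sort the B cells were not stated in the sources used here. Methylation was read by enhanced reduced representation bisulfite sequencing (ERRBS), which sequences bisulfite-treated fragments cut at CCGG. It samples CpG-rich starts densely and CpG-poor regions thinly, and it reads 5-methylcytosine and 5-hydroxymethylcytosine as 1 signal.

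Type I interferons signal through receptor-bound kinases to a complex that includes Stat2 and Irf9 and binds interferon-stimulated response elements (ISRE). Interferon gamma acts through gamma-activated sites (GAS). The induced genes include sensors of viral nucleic acid, enzymes that degrade or modify RNA, ubiquitin-like modifiers and guanylate-binding proteins. They also include the machinery that cuts proteins, moves the peptides into the endoplasmic reticulum and loads them onto class I molecules for display to CD8 T cells. Nlrc5 is the transactivator that drives the class I genes together.

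The libraries held 174375503 to 203863392 reads, and member positions were read 118 to 139 times on average per library. At the Tet2 gene itself 6 positions on chromosome 3, from 133486189 to 133486297, were read 32 to 168 times in every WT library and were absent from all KO libraries. The starts of the B cell genes Cd79b, Pax5 and Cd22 were at 0.225% to 3.01% methylation in WT, and that of Blk was at 84.5%. Of the markers of other cells, the starts of Cd8b1 (T cells) and Csf1r (myeloid cells) were at 80.5% and 81.4% in WT and 91.1% and 89.1% in KO. The start of Gzma (natural killer cells) was at 20.7% and 25.4%. The starts of Cd4 and Cd14 were at 0.546% and 0.175% in WT. The other 13 of the 23 markers had fewer than 3 positions at their start, so the sort could be checked on 10 markers only.

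Promoter sequences are shown first, because they show which CpGs of these genes the assay could read. The start used here is that of RefSeq's promoter table, which lies inside the annotated span in some members, among them Adar, H2-K1 and Oasl1. Members missing from that table, such as Nlrc5, were not read this way. Of the 31 members in it with bases before the start that are free of other genes, 10 had measured CpGs among the 250 bases there. Irf1, Irf2, Bst2 and H2-D1 are shown, and the others were Samhd1 (10 of 26 sites), H2-K1 (5 of 9), Adar (3 of 5), Oasl1 (2 of 7), Ifih1 (1 of 11) and Irf9 (1 of 7). Irf1 and Irf2 are transcription factors of the response, Bst2 (tetherin) holds budding virus at the cell surface, and H2-D1 is a class I heavy chain. The interval between Psmb9 and Tap1, 225 bases from which both genes are read in opposite directions, and the promoter of Isg15, the ubiquitin-like modifier, had no measured CpG. Sequences are from RefSeq (GRCm38.p6), written 5′ to 3′ on the strand of the gene, with measured CpGs in capitals.
Irf1 (chr11:53769764-53770013, plus strand): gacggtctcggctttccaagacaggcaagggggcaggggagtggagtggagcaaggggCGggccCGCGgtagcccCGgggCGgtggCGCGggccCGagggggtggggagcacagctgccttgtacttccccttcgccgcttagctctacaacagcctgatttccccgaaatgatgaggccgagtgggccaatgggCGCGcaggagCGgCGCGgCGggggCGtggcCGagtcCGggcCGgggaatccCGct
Irf2 (chr8:46739495-46739744, plus strand): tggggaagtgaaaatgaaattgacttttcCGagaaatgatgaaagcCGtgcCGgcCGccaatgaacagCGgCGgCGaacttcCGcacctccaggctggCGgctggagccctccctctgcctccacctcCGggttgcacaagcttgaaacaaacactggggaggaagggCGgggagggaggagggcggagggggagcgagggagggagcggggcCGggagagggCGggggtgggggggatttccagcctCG
Bst2 (chr8:71537473-71537722, minus strand): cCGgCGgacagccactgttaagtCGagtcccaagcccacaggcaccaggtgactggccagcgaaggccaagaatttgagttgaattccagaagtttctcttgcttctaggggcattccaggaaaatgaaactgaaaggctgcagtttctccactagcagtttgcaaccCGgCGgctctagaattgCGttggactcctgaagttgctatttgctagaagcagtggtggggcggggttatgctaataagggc
H2-D1 (chr17:35262844-35263093, plus strand): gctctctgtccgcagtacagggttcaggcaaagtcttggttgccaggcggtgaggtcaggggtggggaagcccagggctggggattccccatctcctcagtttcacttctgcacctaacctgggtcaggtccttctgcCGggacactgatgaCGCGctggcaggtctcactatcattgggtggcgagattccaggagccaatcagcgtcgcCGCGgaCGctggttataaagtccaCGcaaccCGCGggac
Tap1 and Psmb9, shared, on the Tap1 strand (chr17:34187331-34187555, plus strand): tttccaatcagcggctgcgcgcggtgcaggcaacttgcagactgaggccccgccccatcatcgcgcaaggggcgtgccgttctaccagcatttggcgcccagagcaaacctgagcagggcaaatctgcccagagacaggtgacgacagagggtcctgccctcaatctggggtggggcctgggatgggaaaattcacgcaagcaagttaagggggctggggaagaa
Isg15 (chr4:156200819-156201068, minus strand): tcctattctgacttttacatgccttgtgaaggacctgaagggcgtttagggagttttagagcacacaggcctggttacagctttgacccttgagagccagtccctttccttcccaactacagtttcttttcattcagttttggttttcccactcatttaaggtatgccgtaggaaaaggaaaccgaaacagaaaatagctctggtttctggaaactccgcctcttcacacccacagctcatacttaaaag

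In the Irf1 promoter 19 of 25 CpG sites were measured, at 25 to 306 reads per position. Every one was nearly free of methylation: the highest value in any library was 1.30% in WT and 2.59% in KO. Irf2 had 14 of 17 sites measured, with a mean of 0.391% in WT and 0.0803% in KO. Its highest value at a position in any library was 12.2% in WT and 1.40% in KO. Bst2 had 6 of 8 sites measured, at means of 0.366% and 0.0910% and highest values of 7.69% and 1.91%. H2-D1 had 9 of 14, at 0.0666% and 0.0795%. H2-D1 and H2-K1 are close copies of each other, as are Gbp2 and Gbp3, and which copy a read came from is uncertain where their sequences match.

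Core motifs of the response were searched on both strands of the 300 bases around each start (250 before, 50 after). The ISRE core was spelled GAAA, any 2 bases, GAAA, and the GAS core TTCNNNGAA. The table held 36 of the 44 members. Of these promoters 15 (41.7%) held an ISRE core, against 3.40% of 17492 promoters, and 10 (27.8%) held a GAS core, against 7.78%. In Irf2 an ISRE core (GAAAATGAAA) lay 241 to 232 bases before the start and a GAS core (TTCCGAGAA) 224 to 216 bases before it. That GAS core holds a measured CpG, on chromosome 8 at 46739525. No other measured position lay in a match of the members with bases before the start that are free of other genes. Matches in the other promoters were not searched for measured positions. The position at 46739525 is described here. It had 0 methylated reads in every library, of 102 to 228 reads, which allows up to 1.32% to 2.94%. In Bst2 a GAS core (TTCCAGGAA, 136 to 128 bases before the start) ran into 2 overlapping ISRE cores (GAAAATGAAA and GAAACTGAAA, together 130 to 115 bases before). In Irf1 the GAS core TTCCCCGAA lay 90 to 82 bases before the start, and its CpG was not measured. Isg15 had 3 overlapping ISRE cores, 78 to 57 bases before its start, in a promoter with 4 CpG sites and none measured. A match is a spelling and not a site shown to be bound.

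Coverage differed widely between members. Ifit1, which binds foreign RNA ends, and Ifi44 had no covered CpG. Ifit3 had 1 position and Gbp3 had 4, and the other 40 members had at least 5. The median over members was 31.5 positions and the highest 222. Many windows read mainly neighbouring genes. Isg15 had all of its 222 positions outside its own span, 119 of them in Agrn and 54 in Perm1, and none within 1 kb of its start. Psmb8 had none of its 46 in its own span, and Xaf1 had 1 of 37, with 28 in Fbxo39. Tapbp had 59 of 209 in its own span, Irf7 had 25 of 73 and Dhx58 had 24 of 79. All 7 positions of the B2m window also lie in Patl2.

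The first comparison asked whether gene starts were more methylated without Tet2. They were nearly free of methylation in both genotypes, and no member start passed the test. Of 29 member starts with at least 3 positions within 1 kb, 24 (82.8%) had a mean under 5% and 19 (65.5%) under 1%, against 76.5% and 57.5% of 13747 starts of all genes. The starts of Irf1 (84 positions), Irf2 (81), H2-K1 (66) and H2-D1 (63) averaged 0.0723% to 0.126% in WT and 0.147% to 0.181% in KO. The start of Nlrc5, taken at its CpG-denser annotated end, was at 0.0199% and 0.339%. Tap1 and Psmb9, read from the same 20 positions, were at 0.307% and 0.183%. Those of Stat2 and Irf7, the latter the factor that amplifies type I interferon, were at 0.327% and 1.14% in WT and 0.496% and 0.175% in KO.

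Starts of the strongly induced genes were mostly out of reach of the assay. There was no covered position within 1 kb of the start of Ifit1, Ifit2, Ifit3, Rsad2, Ifi44, Gbp2, Gbp3, Xaf1, Oas1a, Oas3, Oasl2, Ifi35 or Isg15. These 13 starts were not measured. Zbp1 had 2 positions, at 0% to 0.901% with 31 to 111 reads per library. Trim21 had 1, at 77.8% to 100% with 18 to 42 reads.

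The 5 member starts with a mean between 5% and 95% were tested in 1 fit with 3159 starts of all genes. A call required group means 10 or more percentage points apart and an adjusted p below 0.05. By the limma-moderated quasi-binomial test 0 of the 5 were called, against a background of 0.0633% called higher and 0% called lower. By limma on log2 ratios 0 were called too. The largest difference among the 5 was 7.13 points, under the 10 that a call needs, so none could be called. At an unadjusted p under 0.05 there were 0 higher (background 10.4%) and 1 lower (background 1.23%), Parp14, an ADP-ribosyltransferase. Its start region (chromosome 16, 35870518 to 35872518, 24 positions) was at 6.39%, 9.26% and 12.3% in the WT libraries and 6.07%, 3.47% and 5.93% in the KO libraries. This was also the 1 start with all KO libraries below all WT libraries (background 2.85%), and the means of 9.32% ± 2.96 and 5.16% ± 1.47 (± SD over 3 libraries) had an adjusted p of 0.227 by the same test. The start of Oasl1, a relative of the oligoadenylate synthetases, read 18.7%, 27.2% and 34.2% in WT and 24.9%, 22.1% and 25.2% in KO. These values overlapped (limma-moderated quasi-binomial test, adjusted p = 0.771). Oas2, at 14.2% and 21.4%, Dhx58, at 87.3% and 92.2%, and Tapbp, at 5.95% and 6.42%, overlapped likewise.

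The second comparison took each gene as a whole, as the mean level over the positions of its window. KO levels lay above WT levels in most members, by small amounts, and no member passed the test. Among 31 members tested 0 were called, against a background of 0% in either direction over 14212 genes, by the limma-moderated quasi-binomial test and by limma on log2 ratios. At an unadjusted p under 0.05 there were 5 higher (16.1%, background 20.9%) and 0 lower (background 0.704%). The KO mean was above the WT mean in 29 of 31 (93.5%), against 81.1% of all genes tested. Every KO library was above every WT library in 9 (29.0%), against 28.1%, and below in 0, against 1.41%. The median difference was 1.14 percentage points for the members and 0.668 for all genes. The share of members with separated groups was thus near that of genes at large. The other 9 windows with at least 5 positions had means under 5% and were not tested: Nmi, B2m, Gbp2, Isg15, Bst2, Dtx3l, H2-K1, Psmb8 and H2-D1.

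**Figure D1:**
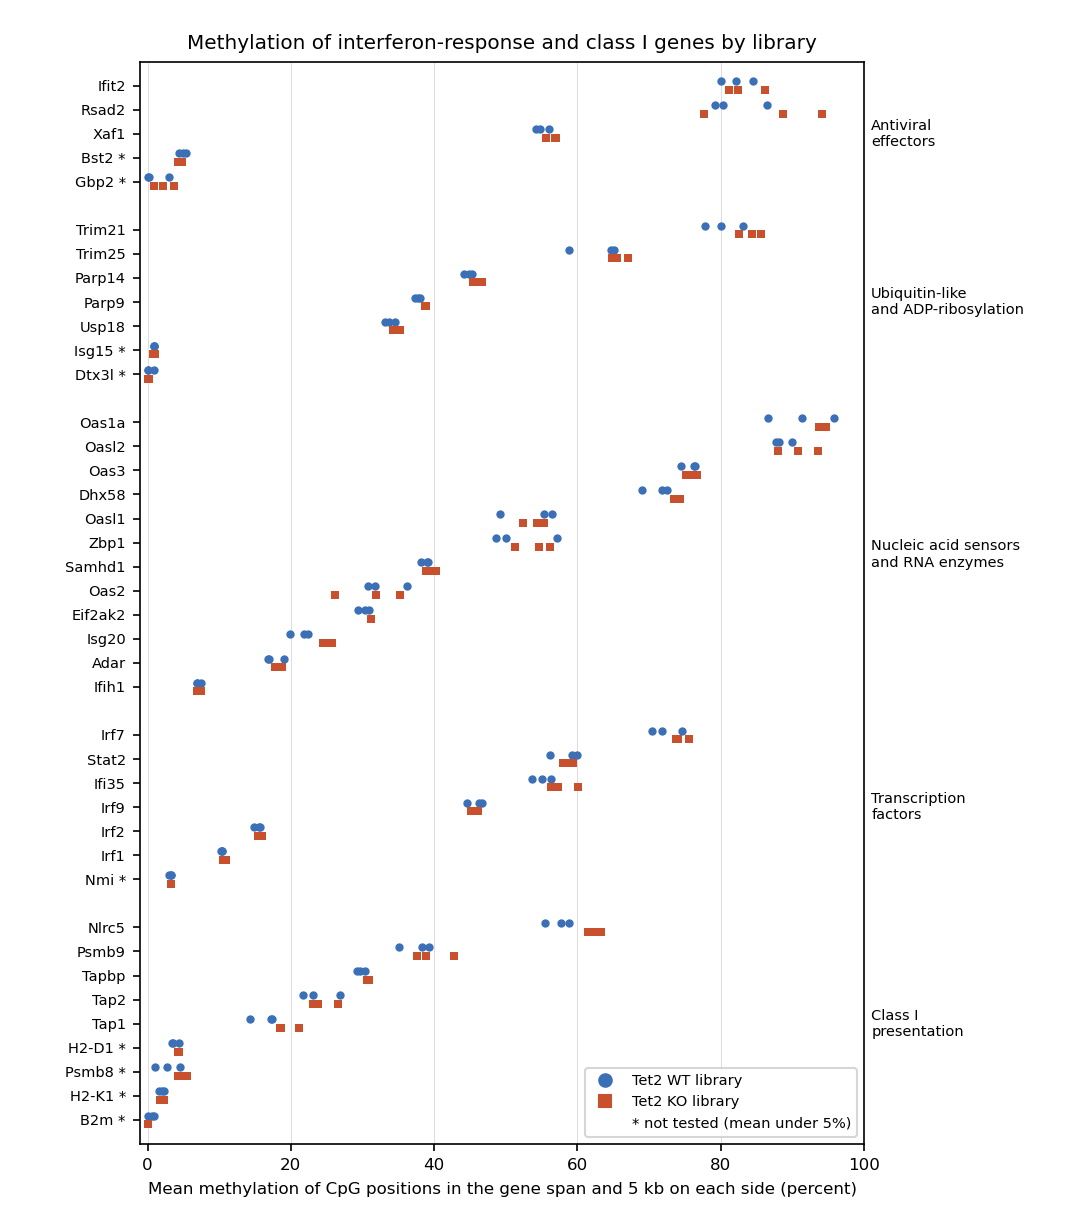
Mean methylation (percent, horizontal axis) of the CpG positions in the window of each of the 40 members with at least 5 positions, by role. Circles are the 3 WT libraries and squares the 3 KO libraries. Squares sit slightly to the right of circles in most rows, with the clearest gap in Nlrc5, and windows with an asterisk had a mean under 5% and were not tested.

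In the class I genes the 5 tested windows had a median difference of 2.17 points, against 0.668 over all genes tested, and 3 of them (60%, background 20.9%) had an unadjusted p under 0.05. With 5 windows, some of them sharing positions, whether class I genes differ from other genes was not tested. Nlrc5 (chromosome 8, 94434335 to 94527272) had the smallest p of all members. Its 52 positions averaged 55.4%, 58.8% and 57.8% in WT replicates 1, 2 and 3 and 61.5%, 63.3% and 62.1% in KO replicates 1, 2 and 3. All KO libraries were higher, by 4.99 points between means of 57.3% ± 1.72 and 62.3% ± 0.918 (± SD over 3 libraries), at an adjusted p of 0.0818 (limma-moderated quasi-binomial test).

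Tap1, a subunit of the peptide transporter (chromosome 17, 34187556 to 34197225), read 14.2%, 17.2% and 17.3% in WT and 18.6%, 21.1% and 18.4% in KO. The groups did not overlap, with means of 16.2% ± 1.73 and 19.4% ± 1.496 (± SD over 3 libraries; limma-moderated quasi-binomial test, adjusted p = 0.165). Tapbp (tapasin), which holds empty class I molecules next to the transporter, read 29.3%, 30.4% and 29.6% in WT and 30.7%, 30.8% and 30.9% in KO. Its groups were separated by a smaller step, from 29.8% to 30.8% (adjusted p = 0.164, same test). Over the gene span alone the Tapbp difference was 0.294 points in place of 1.02. Psmb9, a catalytic subunit of the immunoproteasome, was at 35.1%, 38.3% and 39.3% in WT and 37.6%, 42.8% and 38.8% in KO, and the groups overlapped. The Psmb9 difference of 2.17 points was 0.653 without KO replicate 2 and 4.64 over the gene span alone. Tap2, the partner of Tap1, was at means of 23.9% and 24.5%. Tap1, Psmb9 and Psmb8 share positions, so their values are not independent.

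The class I heavy chains and their light chain were low in every library. H2-K1 read 1.62%, 2.02% and 2.31% in WT and 2.11%, 2.34% and 1.74% in KO. H2-D1 read 3.34%, 3.54% and 4.42% in WT and 4.41%, 4.22% and 4.37% in KO. Both overlapped. B2m, beta-2 microglobulin, read 0.557%, 0.844% and 0.0641% in WT, and KO replicate 3 read 0.0583%. KO replicates 1 and 2 had 0 methylated reads at B2m, which allows up to 0.201% and 0.279% of the reads summed over its 7 positions. These limits take all those reads as independent. Reads that cover more than 1 position would raise them. Psmb8, the immunoproteasome subunit whose window reaches into the end of Tap1, read 1.03%, 4.52% and 2.65% in WT and 4.89%, 5.56% and 4.31% in KO.

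Of the 7 transcription factors and their partners 6 were tested and 0 had an unadjusted p under 0.05, with a median difference of 0.334 points. Irf1, itself induced by interferon gamma, read 10.4%, 10.4% and 10.3% in WT and 10.6%, 10.96% and 10.7% in KO. Every KO value was above every WT value at Irf1, by 0.350 points between means (limma-moderated quasi-binomial test, adjusted p = 0.449), although it was 0.0115 points over the gene span alone, and -0.942 with reads summed over the window. Irf7 read 70.4%, 71.8% and 74.6% in WT and 74.0%, 73.7% and 75.6% in KO. The groups overlapped at Irf7, and the difference of 2.14 points was 1.15 over the gene span alone and 1.2 without WT replicate 1. Stat2, at 58.4% ± 2.03 and 58.6% ± 0.724, and Irf9, at 45.8% ± 1.13 and 45.5% ± 0.588 (± SD over 3 libraries), also overlapped, and the sign of both differences changed with the choice of window. With reads summed over the window, Irf9 read 32.9%, 34.8% and 30.6% in WT and 29.8%, 21.4% and 21.9% in KO. Every KO library was then below every WT library, at a difference of -8.40 points against -0.347 with positions weighted equally (adjusted p = 0.352, limma-moderated quasi-binomial test).

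The 12 sensors and RNA enzymes were all tested, with 2 (16.7%, background 20.9%) at an unadjusted p under 0.05 and a median difference of 0.842 points. Isg20, an exonuclease that degrades RNA, read 19.9%, 22.4% and 21.8% in WT and 25.5%, 24.5% and 25.7% in KO. Dhx58 (LGP2), a helicase that tunes RNA sensing, read 69.0%, 72.5% and 71.8% in WT and 73.5%, 74.1% and 74.4% in KO. In both the KO libraries were all higher, by 3.89 points at Isg20 over 12 positions and 2.88 points at Dhx58 over 79 (limma-moderated quasi-binomial test, adjusted p = 0.141 and 0.148). With reads summed the difference at Isg20 was 6.73 points, and without WT replicate 1 that at Dhx58 was 1.85. Oas2, an oligoadenylate synthetase, read 30.8%, 31.7% and 36.3% in WT and 31.8%, 26.2% and 35.3% in KO. Its difference of -1.80 points, over 7 positions, was the largest fall of the mean among the tested members, and the groups overlapped.

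The modifiers with a tested window were Trim21, Trim25, Parp9, Parp14 and Usp18, with KO means higher by 0.868 to 3.81 points and none at an unadjusted p under 0.05. Trim25, the ubiquitin ligase that acts on RNA sensors, averaged 62.9% ± 3.52 across WT and 65.8% ± 1.17 across KO (± SD over 3 libraries). Isg15, over neighbouring genes, was at 0.889% and 0.950%. The antiviral effectors tested were Ifit2, Rsad2 (viperin, which makes a chain-terminating nucleotide) and Xaf1, with means higher by 1.02, 4.84 and 1.47 points. All 3 overlapped between groups.

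WT replicate 1 was the lowest library in 22 of 31 member windows (71.0%), against 50.4% of windows of all genes. Averaged over the 40 member windows with each gene given the same weight, the WT libraries were at 36.3%, 38.3% and 38.0% and the KO libraries at 38.7%, 38.8% and 39.0%. All KO libraries were above all WT libraries, with means of 37.5% ± 1.09 and 38.8% ± 0.140 (± SD over 3 libraries), a difference of 1.34 points. Over all genes the difference was 0.841 points, also with separated groups. Without WT replicate 1 it was 0.715 points for the members and 0.579 for all genes. No test was run on this mean, because the members were chosen with earlier results known.

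The difference lay away from the starts. Within 1 kb of the start the 719 member positions averaged 2.52% in WT and 2.55% in KO. The 493 positions in the rest of the gene spans were at 57.5%, 60.4% and 59.7% in WT and 60.9%, 61.8% and 61.2% in KO, 2.10 points apart on average. Those in the rest of the flanks, 639 positions, were 1.36 points apart, at 37.3% and 38.7%. For all genes the same 3 classes differed by 0.185, 1.31 and 1.72 points. Whether any class of the members differs from that of other genes was not tested.

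The third comparison divided the windows into 1 kb tiles with reads summed in each. It was made to find short stretches that a gene mean would hide, and again no member tile passed. The members held 146 tiles with at least 3 positions, of which 49 had means under 5%, 14 over 95%, and 83 were tested. Of these 0 were called by the limma-moderated quasi-binomial test, against backgrounds of 0.685% called higher and 0.00241% called lower among 83114 tiles. Limma on log2 ratios called 0 of all tiles, so its 0 for the members says nothing particular to them. At an unadjusted p under 0.05 there were 12 higher (14.5%, background 10.1%) and 0 lower (background 1.39%). The KO mean was above the WT mean in 62 (74.7%, background 64%). All KO libraries were above all WT libraries in 15 (18.1%, background 12.7%) and below them in 2 (background 3.54%). The median difference was 2.92 points, against 1.28 over all tiles tested and 1.58 over tested tiles within 5 kb of any gene. By role, 6 of the 12 tiles with an unadjusted p under 0.05 were of class I genes, of 18 tested, and 0 were of sensors and RNA enzymes, of 25 tested. Windows overlap, so a tile can count for more than 1 member.

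**Figure D2:**
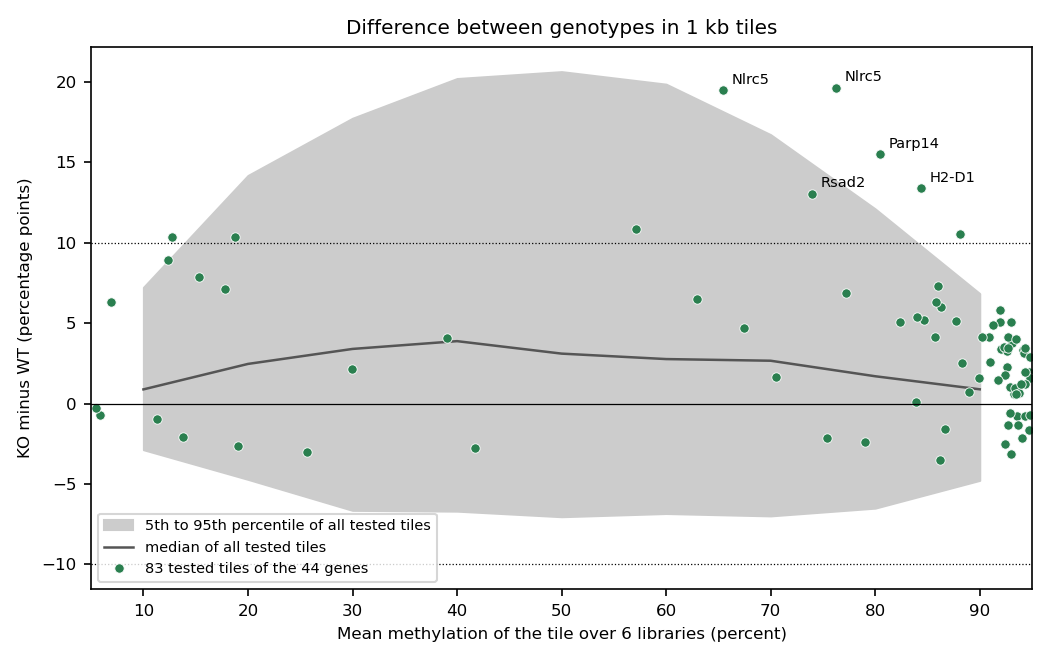
Difference between genotypes (KO minus WT, percentage points) against the mean level (percent) of the 83 tested member tiles, each a point. The grey band runs from the 5th to the 95th percentile of all tested tiles by level, the dark line is their median, and dotted lines mark 10 points. Both Nlrc5 tiles near 20 points lie above the band, and most member tiles have means over 85% and small differences.

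The smallest p among member tiles was in the end of Tap1, upstream of Psmb8, on chromosome 17 from 34196001 to 34197000. Its 10 positions, with 1479 to 2168 reads per library, were at 2.05%, 12.7% and 8.78% in WT and 17.9%, 17.9% and 14.6% in KO. All KO libraries were higher, by 8.95 points between means of 7.85% ± 5.39 and 16.8% ± 1.92 (± SD over 3 libraries; limma-moderated quasi-binomial test, adjusted p = 0.108). The WT libraries differed among themselves by more than the genotypes did. Without WT replicate 2 the difference was 11.4 points and the tile was called (adjusted p = 0.0392, same test). WT replicate 2 was the WT library nearest to the KO libraries in this tile. The tile was called in 1 of 11 alternatives, over which the difference ran from 6.05 to 11.4 points. Their adjusted p ran from 0.0392 to 0.533 (same test, or limma on log2 ratios).

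The next 2 tiles were both in Nlrc5. One, on chromosome 8 from 94435001 to 94436000, begins 666 bp inside the CpG-denser annotated end, beyond the unmethylated stretch there. It read 45.8%, 56.9% and 64.5% in WT and 72.9%, 84.3% and 68.5% in KO, with 469 to 876 reads over 4 positions. The other begins 7666 bp inside that end, from 94442001 to 94443000, and read 57.1%, 66.3% and 75.9% in WT and 77.4%, 87.8% and 93.2% in KO. Groups did not overlap in either. The differences were 19.5 and 19.7 points, from 55.7% ± 9.40 to 75.2% ± 8.18 and from 66.4% ± 9.38 to 86.1% ± 8.03 (± SD over 3 libraries; limma-moderated quasi-binomial test, adjusted p = 0.112 and 0.158). Without WT replicate 3 the nearer tile was called, at 23.9 points (adjusted p = 0.0368, same test). WT replicate 3 was the WT library nearest to the KO libraries there. The nearer tile was called in 1 of 11 alternatives, over which its difference ran from 14.5 to 23.9 points. Their adjusted p ran from 0.0368 to 0.464 (same test, or limma on log2 ratios).

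**Figure D3:**
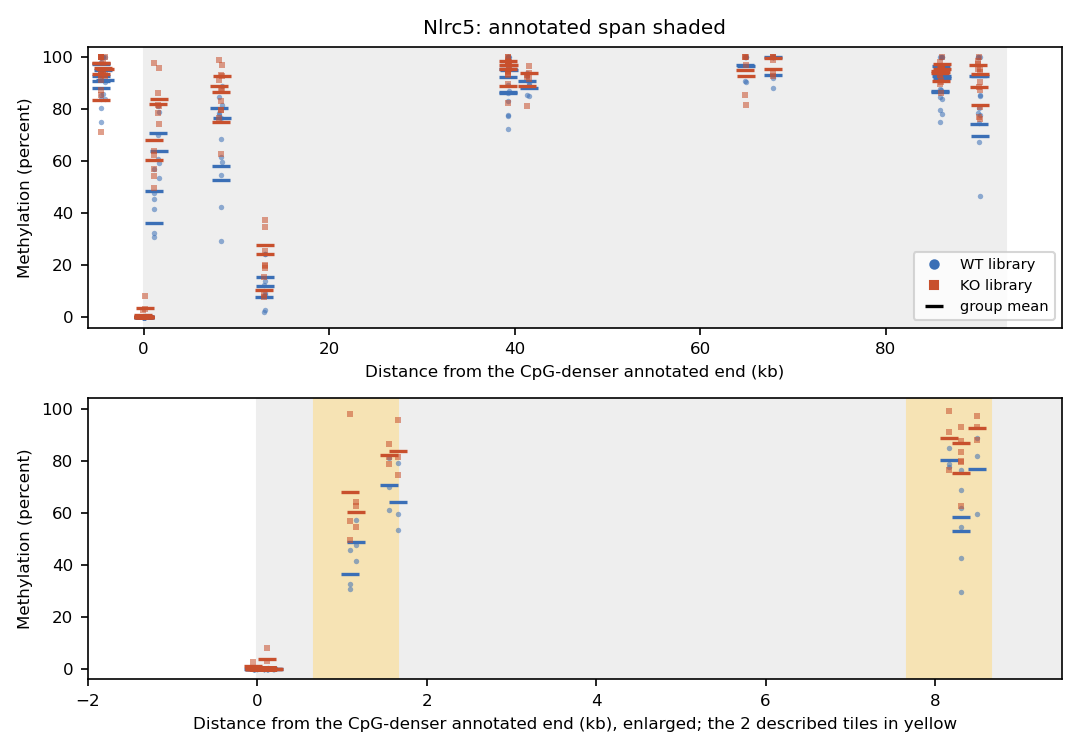
Methylation (percent) of each covered CpG position of Nlrc5 against its distance (kb) from the CpG-denser annotated end, over the whole window (top) and enlarged (bottom). Circles are WT libraries, squares KO libraries and dashes group means. Positions at the end are near 0 in both genotypes, and in the tiles shaded yellow the KO means lie above the WT means.

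The remaining tiles named by rank of p were smaller steps. Larger rises with larger p were not named. They reached 15.5 points among tiles of the modifiers, 13.1 among those of the antiviral effectors and 10.4 among those of the transcription factors. The Xaf1 window tile on chromosome 11 from 72317001 to 72318000, which lies in Fbxo39, went from 82.1% ± 0.794 in WT to 87.3% ± 2.24 in KO (± SD over 3 libraries). With its positions weighted equally the groups overlapped and the difference was 2.77 points in place of 5.22. A tile before the start of Trim25, from 88998001 to 88999000 on the same chromosome, read 1.79%, 6.63% and 2.80% in WT and 8.29%, 12.5% and 9.45% in KO. A tile of the Tapbp window that lies in Rgl2 (chromosome 17, 33932001 to 33933000) was at 93.3% ± 1.17 and 96.2% ± 0.540 (± SD over 3 libraries). With reads summed the KO libraries were above the WT libraries in all 3, at adjusted p = 0.199, 0.243 and 0.249 (limma-moderated quasi-binomial test).

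Falls were small, and 0 had an unadjusted p under 0.05. The 6 with the smallest p were tiles of Oasl1, Irf9, Parp14, Irf1, Samhd1 and Adar, with differences of -2.98, -2.51, -2.65, -3.52, -2.16 and -3.13 points. Only the tile of the Irf9 window, which lies in Rnf31 (chromosome 14, 55600001 to 55601000), had separated groups among these 6. It read 92.9%, 95.1% and 93.0% in WT and 92.6%, 91.8% and 89.0% in KO, and its difference was -6.21 points at positions with 20 or more reads. The Oasl1 and Parp14 tiles had the opposite sign without WT replicate 3, at 0.808 and 1.98 points.

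Single positions gave the only calls. Of 1851 positions 463 were tested, and 2 were called higher in KO (background 0.284%) and 0 lower (background 0.0105%) by the limma-moderated quasi-binomial test, with 39 higher (8.42%, background 6.47%) and 4 lower (0.864%, background 2.23%) at an unadjusted p under 0.05. All KO libraries lay above all WT libraries at 51 (11.02%, background 8.3%) and below at 12 (2.59%, background 4%). By limma on log2 ratios 0 of the 463 were called, and 0 of all positions tested. Both called positions lie in the windows of class I genes, and they were singled out after their values were seen.

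The first lay in Tap1, 205 bp before its annotated end and 1175 bp before the start of Psmb8, on chromosome 17 at 34197020. It rose from 2.36%, 0% and 5.58% in WT to 20.5%, 41.6% and 19.1% in KO, with 267 to 394 reads per library. The 0% of WT replicate 2 is of 296 reads and allows up to 1.01%. The means of 2.65% ± 2.80 and 27.1% ± 12.6 (± SD over 3 libraries) were 24.4 points apart (limma-moderated quasi-binomial test, adjusted p = 0.000152), and the call was kept without each library in turn. It was lost with the replicate number as a block (adjusted p = 0.527, same test) and by limma on log2 ratios (adjusted p = 0.679). Each of these 2 alternatives called no position at all. The 4 positions before it, from 34196956 to 34196976, also had all KO libraries above all WT libraries, with differences of 7.67 to 14.3 points that did not pass. Positions from 34196886 to 34196942, further towards the body of Tap1, overlapped, with WT replicate 2 the highest WT library at each. On the other side, from 34197410 towards Psmb8, group means were at most 10.3%.

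**Figure D4:**
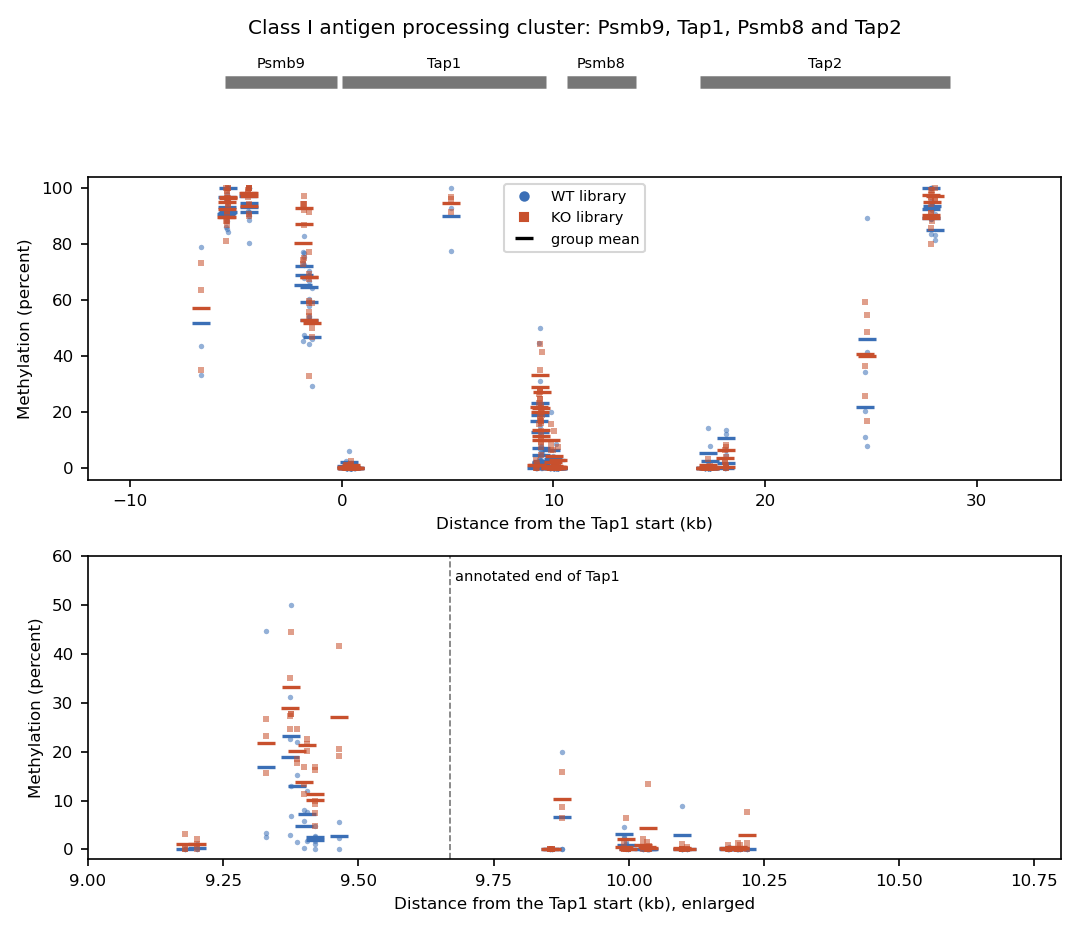
Methylation (percent) of each covered CpG position across Psmb9, Tap1, Psmb8 and Tap2, drawn as bars at the top, against distance (kb) from the Tap1 start, with the end of Tap1 enlarged below. Circles are WT libraries, squares KO libraries and dashes group means. Starts are near 0 in both genotypes, and just before the annotated end of Tap1 the KO means lie above the WT means.

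The second called position lay outside the Tapbp span, 1074 bp before its start, on chromosome 17 at 33918404. Only the 152 bases next to that start are free of a neighbouring gene. Of the 150 window positions outside the Tapbp span, 59 lie in Rgl2 and 43 in Zbtb22. The called position rose from 22.0%, 80.0% and 49.3% in WT to 86.5%, 86.1% and 94.5% in KO, with only 20 to 89 reads per library. The WT libraries were spread over most of the scale, and the KO libraries were close together (means 50.4% ± 29.0 and 89.0% ± 4.75, ± SD over 3 libraries, adjusted p = 0.0462, limma-moderated quasi-binomial test). The call was lost without WT replicate 1, at 24.4 points (adjusted p = 0.319, same test), and without any KO replicate. Positions on either side, 17 and 22 bp away, were not called.

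Other genes of the pathway were read from the same tables. The list had 60 genes, of which 56 matched the gene table. Of 37 tested windows 0 were called, and the largest difference, 9.51 points, was under the 10 that a call needs. At an unadjusted p under 0.05 there were 7 higher (18.9%, background 20.9%) and 0 lower (background 0.704%). The 7 include Cd274, H2-Q7, Ifi30, Psme1, Tlr9 and Tyk2, and their share was near that of all genes. The largest step of the 7 was in Ifi30, a lysosomal thiol reductase of antigen processing, from 44.8% ± 5.81 to 54.3% ± 1.02 (± SD over 3 libraries; limma-moderated quasi-binomial test, adjusted p = 0.131). The interferon gamma receptor genes Ifngr1 and Ifngr2 were at 17.3% and 22.5% in WT and 16.3% and 23.6% in KO.

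Of 77 tested tiles of these other genes 3 (3.90%) were called higher and 0 lower, against the same backgrounds of 0.685% and 0.00241%. By limma on log2 ratios none of the 3 was called, and neither was any other tile. Psme1, a subunit of the proteasome activator that favours class I peptides, rose in a tile on chromosome 14 from 55580001 to 55581000. It read 40.1%, 62.8% and 50.6% in WT and 93.6%, 90.9% and 90.7% in KO (40.5 points between means of 51.2% ± 11.3 and 91.7% ± 1.61, ± SD over 3 libraries, adjusted p = 0.0124, limma-moderated quasi-binomial test). In Ticam1, the adaptor of Tlr3, a tile rose from 53.0% ± 10.3 to 76.1% ± 5.23, and in the Ifi30 window a tile that lies in Pik3r2 rose from 16.7% ± 7.68 to 35.1% ± 2.38 (± SD over 3 libraries; same test, adjusted p = 0.0400 and 0.0313). Both calls were lost without KO replicate 1, 2 or 3 and without WT replicate 2, and that of Ticam1 also without WT replicate 1. With positions weighted equally they were lost too, at 14.9 points in Ticam1 and 16.6 in the Ifi30 window, and with no filter on level all 3 were lost (adjusted p = 0.102 to 0.219, same test). The call of Psme1 was lost without any KO replicate, at adjusted p of 0.0599 to 0.0795 (same test). These 3 tiles were named after their values were seen.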

How the data were processed

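Libraries were 3 Tet2 WT and 3 Tet2 KO, grouped by title. Reads were aligned with Bismark to GRCm38, per the submitters' processing notes; the sources used here state no version or settings. Deposited tables hold, for every CpG position and strand, a coverage count with C and T as percent of that coverage, per the file headers. No position has under 10 reads. Methylated counts recovered from the authors' deposited coverage counts and percent values were whole at 100% of positions within rounding to 3 decimals. Reads of another base (0.0172% to 0.0189%) were left out. PCR copies cannot be told from independent molecules, so limits from counts cover counting error only. Where the replicates came from is unstated in the labels. The p-values therefore reflect only read counts and the scatter of libraries within groups, pooled over both groups and moderated over all features. Part of that scatter can be technical.

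Members, lists and tests were chosen with earlier results of these data known. Windows needed 5 positions (level: mean over positions, weighted in the fit by reads), tiles and starts 3 (reads summed). Starts were the 5′ end of the annotated span where the RefSeq promoter table gave a strand (36 members), otherwise the CpG-denser end (Zbp1, Parp9, Dhx58, Parp14, Oas2, Tap2, Usp18 and Nlrc5). Exons, introns and untranslated regions were not used here. All features of a kind were fitted together with a quasi-binomial logistic model, two-sided, on 3 against 3 libraries, with Pearson dispersion moderated by a Python version of limma's empirical Bayes (Python 3.11.15, numpy 2.4.6, pandas 2.3.3, scipy 1.17.1, checked against limma 3.58.1 in R 4.3.3). Only features averaging 5% to 95% entered, with Benjamini-Hochberg adjustment over all of them. A call needed an adjusted p under 0.05 and group means 10 points apart. The fit was also run on simulated data with the same overdispersion at every feature, a setting that these libraries need not share. No result here rests on that run.

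Named with values were members with a call, the 5 windows and 6 tiles with the smallest p in each direction (only 2 windows were lower), and Irf1, Irf7, Irf9, Stat2, Isg15, Tap1, Psmb9, B2m, H2-K1, H2-D1 and Nlrc5. Promoters were to be printed by p of the start. Those starts had no measured CpG in the bases upstream of the annotated span, or lacked a strand, or read 2 positions (Oasl1), so Irf1, Irf2, Bst2, H2-D1, Tap1 with Psmb9, and Isg15 were printed after this was seen. Positions fell on the right promoter base at 178 of 178. Alternatives were limma on log2 ratios with an offset of 1, a coverage minimum of 20, other weights, windows and tile sizes, no filter on level, leaving out each library, and the replicate number as a block.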

Additional observations from a re-analysis of the deposited data

How the results depend on the processing

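Of the summaries over members, 0 called windows and 0 called starts held under every alternative run. Called member tiles, 0 of 83, ranged from 0 to 1 when each library was left out, with 1 without WT replicate 2 (Tap1 and Psmb8) and 1 without WT replicate 3 (Nlrc5). Called positions, 2 of 463, ranged from 1 to 6 when each library was left out, and were 0 with the replicate block and 0 with limma on log2 ratios. Over all tiles the calls numbered 571, against 892 with the block, 124 to 1164 when each library was left out, 8 with no filter on level and 0 with limma. Over all positions they numbered 1544, against 545 to 3667, 0 with the block and 0 with limma. Correlations of deviations were 0.023, 0.002 and 0.004 for libraries of the same number, and -0.02 to 0.015 for the others. They do not settle whether libraries of the same number share a source, which the labels do not state. The cause of the effect of the block was not tested. With no filter on level more features were tested, and 97 of 146 tiles and 18 of 29 starts had the KO mean above. The set difference ran from 0.715 to 1.72 points when each library was left out. Signs changed for Stat2 (-0.115 with 2 kb flanks and -0.115 with the span alone, -0.971 (and -0.208) to 0.929 when each library was left out, negative without WT replicate 1 or KO replicate 1), Irf9 (0.849 with 2 kb flanks, 0.196 with the span alone, -8.40 with summed reads, -0.988 to 0.0704 with a library left out, positive without WT replicate 3), Oas2 (-3.90 to 0.651, positive without KO replicate 2) and Irf1 (-0.942 with summed reads). They also changed for the Oasl1 and Parp14 tiles (-7.05 to 0.808 and -6.24 to 1.98, both positive without WT replicate 3) and for the Tapbp and Oasl1 starts (-0.319 to 1.61, negative without WT replicate 1, and -6.59 to 1.13, positive without WT replicate 3). The called Tap1 position had adjusted p from 1.39e-05 to 0.679 over its alternatives, the Tapbp position from 0.00546 to 0.72, and the Nlrc5 window from 0.0728 to 0.501 (limma-moderated quasi-binomial test, or limma). At 5 tested starts, and at windows read mostly in neighbouring genes, the assay limits what can be said.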
